A study of Mus with 12 samples.

Results

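Blood of mice that received human umbilical cord mesenchymal stem cells (MSC) under the skin and into the tail vein (scivMSC) was compared with blood of mice that received them under the skin alone (scMSC). Each group had 3 RNA-seq libraries, 6 of the 12 blood libraries of the series, and the remaining libraries came from mice given vehicle (Solvent) or the skin sensitiser 2,4-dinitrochlorobenzene alone (DNCB). All mice were BALB/c females aged 6 weeks. Both MSC groups were sensitised with 1% DNCB and challenged with 0.5% DNCB on the back and the right ear, which produces an atopic dermatitis-like disease. Both received 4 doses of 2e6 MSC between day 13 and day 25, and samples were taken on day 30. In scMSC mice the whole 100 µL of each dose was subcutaneous, whereas scivMSC mice received 50 µL subcutaneously and 50 µL intravenously. Addition of the intravenous route and the smaller subcutaneous dose therefore cannot be told apart. The sources used here do not state whether a library is a single mouse, so p-values measure only the spread between these samples, which may in part be technical.

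The genes described are the 3252 of 25247 in the deposited table whose FPKM (fragments normalised to the length of the gene and the size of the library) reached 1 in at least 3 of the 6 libraries. Whole blood RNA is dominated by reticulocytes, young red cells without a nucleus that still hold globin mRNA and are clearing their mitochondria and ribosomes. Platelets carry RNA from megakaryocytes, and the rest comes from circulating leukocytes, among them T and B lymphocytes, neutrophils and monocytes. An FPKM value is a share of the library, so a transcript's level depends on what all other cells contribute.

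Most blood genes had lower FPKM after the combined route, and several of the few genes called higher are red cell genes. With edgeR's quasi-likelihood test on counts scaled by library totals, 15 genes were called higher (0.461% of those tested) and 889 lower (27.3%) in scivMSC, together 27.8%. A call required a Benjamini-Hochberg adjusted p under 0.05 and a fold change over 2. Each fold change below is best read against the median of genes at a similar expression level, given in the next paragraph. Over all tested genes the median log2 fold change was -0.62. TMM scaling, which assumes that most genes do not change, moved this median to 0.03 and gave 339 genes called higher (10.4%) and 276 lower (8.49%). The 15 rises and 276 of the falls were called under both scalings, and no gene was called in opposite directions. In FPKM the 3 scivMSC libraries lay entirely below the 3 scMSC libraries for 1367 genes (42%) and entirely above for 198 (6.09%), together 48.1%. Of the tested genes, 406 reached an FPKM of 1 in scMSC libraries only, and 359 of these were called lower, which the filter itself favours. Such genes are pointed out below as above the filter in scMSC only. Among the 2835 genes that reached it in at least 1 library of each group, 12 were called higher and 530 lower (18.7%). Genes said below to reach an FPKM of 1 in both groups are among those 2835, so some may still have passed mainly through scMSC libraries.

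Deposited counts totalled 52.2e6 to 59.7e6 per library in scMSC and 53.1e6 to 54.2e6 in scivMSC. Haemoglobin genes took 85.6% ± 0.932 (SD, n = 3) of counts in scMSC and 87.3% ± 2.13 (SD, n = 3) in scivMSC, a difference of 1.77 percentage points (exact two-sided permutation test, p = 0.3, where the smallest possible p is 0.1). Genes with an FPKM of at least 1 numbered 3183 to 3900 in scMSC and 1804 to 3140 in scivMSC. The library scivMSC replicate 2 stood apart, with the fewest such genes, the highest haemoglobin share at 89.0%, and the lowest FPKM of the 6 in 2004 of the tested genes. Without it, 16 genes were called higher and 425 lower. The total of 904 calls was 348, 823 and 447 without scMSC replicates 1, 2 and 3 and 1446, 441 and 428 without scivMSC replicates 1, 2 and 3, so list counts below are given with their range over these exclusions where it matters. Fold change moved with expression level. For the 1566 genes with a mean FPKM under 2 the median log2 fold change was -0.90, and for the 869 from 2 to 5 it was -0.56. It was -0.19 for the 533 genes from 5 to 20, 0.04 for the 216 from 20 to 100, and 0.05 for the 68 at 100 or above. The part of library composition in the results below was not tested.

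**Figure D1:**
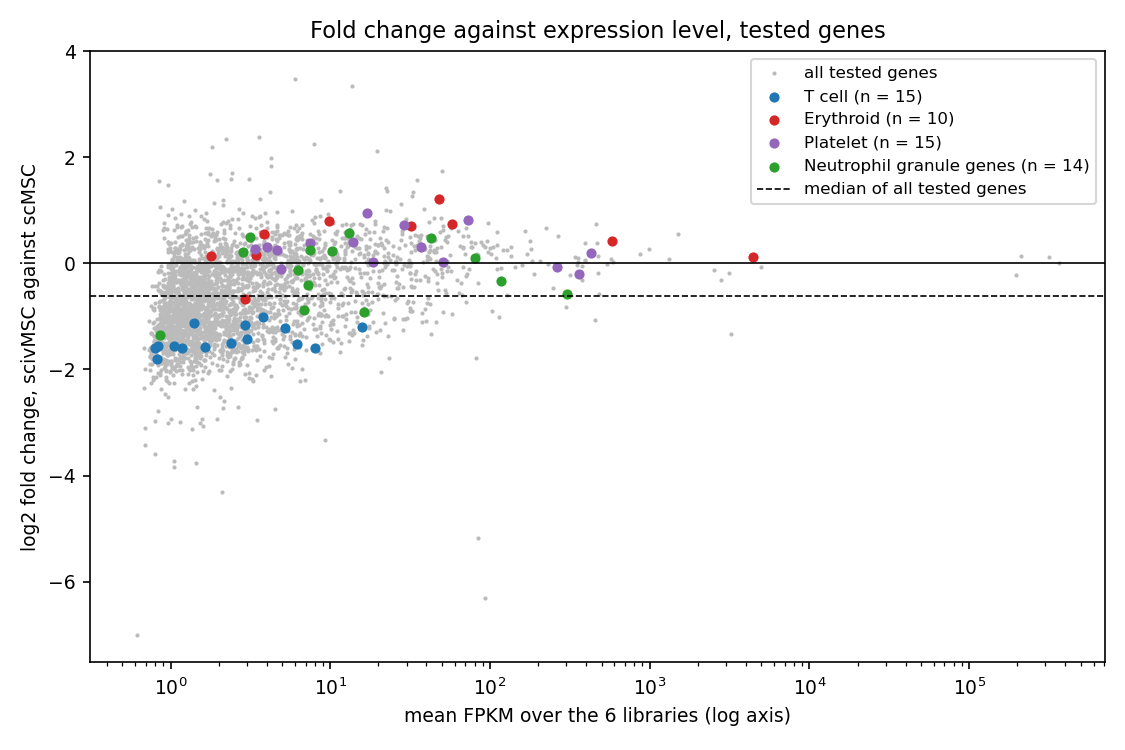
Log2 fold change of scivMSC against scMSC under total-count scaling (vertical axis) for the 3252 tested genes, against mean FPKM over the 6 libraries (horizontal log axis). T cell markers lie below the dashed line, which marks the median of all tested genes at -0.62, while most erythroid and platelet markers lie above it.

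T cell transcripts were lower after the combined route in all scivMSC libraries. All 15 T cell markers were called lower, with a median log2 fold change of -1.51, and for each of them the 3 scivMSC libraries lay below the 3 scMSC libraries. Of the 15, 5 passed the filter through scMSC libraries alone, and the other 10 were also called lower. Lck, the kinase that starts signalling from the T cell receptor, had FPKM of 10.1, 7.78 and 9.54 in scMSC and 4.71, 1.70 and 3.14 in scivMSC. Its values did not overlap between the groups, with a fold change of -1.51 ± 0.36 on the log2 scale (SE; adjusted p = 0.0107). Tcf7, a transcription factor of naive and memory T cells, had FPKM of 13.2, 9.51 and 13.6 in scMSC and 5.62, 2.29 and 4.05 in scivMSC, again without overlap (log2 fold change -1.59 ± 0.38, adjusted p = 0.0107). Bcl11b, which maintains T cell identity and was above the filter in scMSC only, fell further, by 1.80 on the log2 scale, from 1.33, 1.17 and 1.35 to 0.474, 0.211 and 0.411. The smallest fall was that of Cd3d, a receptor chain, at a log2 fold change of -1.02 ± 0.36 (adjusted p = 0.0453). In bulk blood, fewer T cells, less RNA per T cell and a larger share of RNA from other cells cannot be told apart.

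The T cell receptor pathway followed the same direction. Of 24 listed components 17 were tested, all 17 lay below scMSC without overlap, and 14 were called lower with a list median of -1.50. Of the 14 pathway genes that reached an FPKM of 1 in both groups 11 were called. The adaptor Lat had the smallest change, at -0.64 ± 0.28 (adjusted p = 0.0852). Under TMM scaling the medians of both T cell lists stayed below 0, at -0.92 for the markers and -0.86 for the pathway, but only 2 genes of each list remained called. Without scivMSC replicate 2, 8 of the 15 markers and 8 of the 17 pathway genes were called lower, and with each library left out in turn both counts ranged from 6, without scMSC replicate 1, to 15. The summed FPKM of the 15 markers was 87.3, 61.3 and 88.7 in scMSC and 42.7, 17.5 and 32.8 in scivMSC. For orientation, the sums ranged from 48.6 to 66.2 in DNCB and from 125 to 219 in Solvent.

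B cell and antibody transcripts were also lower. The 7 tested of 15 B cell markers all lay below scMSC without overlap, with a median log2 fold change of -1.30, and 3 were called lower. Over all tested genes 42% lay below and 27.3% were called lower. Cd79a, a signalling chain of the B cell receptor, had FPKM of 6.77, 5.83 and 6.72 in scMSC and 3.49, 1.62 and 2.67 in scivMSC (log2 fold change -1.30 ± 0.45, adjusted p = 0.0401). None of the B cell markers was called under TMM scaling or without scMSC replicate 1, scMSC replicate 3 or scivMSC replicate 2, with medians between -1.26 and -0.68. Of 12 tested B cell receptor signalling genes, 6 were called lower, and 3 of the 12 were above the filter in scMSC only. Among the other 9 genes 4 were called. The count was 0 under TMM scaling and without scMSC replicate 1, 1 without scMSC replicate 3 or scivMSC replicate 2, and 2 with the 6 libraries fitted alone.

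Immunoglobulin genes showed the lowest list median. Of 200 variable segments listed, 52 were tested, 25 were called lower and the median was -2.08. Because 17 of the 52 passed the filter through scMSC alone, the remaining 35 were counted separately, and 13 of these were called lower with a median of -1.72. Over single exclusions the calls ranged from 3 without scMSC replicate 1 to 27 without scivMSC replicate 1, and were 11 without scivMSC replicate 2. Igkc, the kappa light chain constant region, had FPKM of 193, 100.3 and 87.3 in scMSC and 41.9, 22.5 and 46.2 in scivMSC, with no overlap (log2 fold change -1.77 ± 0.44, adjusted p = 0.0124). Igha, which encodes the IgA heavy chain, fell by 2.05 on the log2 scale, from 53.5, 27.4 and 20.03 to 9.24, 5.14 and 9.82 (adjusted p = 0.0102). Jchain, which joins IgA and IgM into polymers and was chosen after its values were seen, had a log2 fold change of -1.97 ± 0.49 (adjusted p = 0.0122). These 3 genes were also called lower under TMM scaling. Ighm, the IgM heavy chain, fell less (log2 fold change -1.15 ± 0.37, adjusted p = 0.0301). Replicate 1 of scMSC was the highest library for Igkv1-117 at 17.0 and Igkv1-110 at 23.4, where the other scMSC libraries ranged from 6.99 to 7.88 and from 4.07 to 4.53. Some segments resemble each other closely, so the share of reads given to each of those is uncertain.

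Antigen presentation genes were lower in part. Of 7 tested genes for presentation on MHC class II, 4 were called lower (median -1.44). Cd74, the invariant chain that escorts class II molecules, had FPKM of 31.9, 14.2 and 24.5 in scMSC and 8.25, 5.77 and 11.8 in scivMSC (log2 fold change -1.44 ± 0.47, adjusted p = 0.0322). Ctss, the protease that removes this chain, fell by 2.01 on the log2 scale and was called under both scalings. For class I, 11 of 22 tested genes were called lower (median -1.06), with the largest fall in H2-Q5 (-1.93 ± 0.36, adjusted p = 0.00694). Over all tested genes 27.3% were called lower. Among genes that reached an FPKM of 1 in both groups, 3 of 6 class II and 9 of 20 class I genes were called lower. Under TMM scaling 2 of the 7 class II and 4 of the 22 class I genes were called lower. Without scivMSC replicate 2 the counts were 2 and 5, and over single exclusions they ranged from 1 to 4 and from 4 to 14, lowest for class II without scMSC replicate 3 and for class I without scMSC replicate 1 or scivMSC replicate 3. B2m, the light chain shared by class I molecules, had FPKM of 355, 331 and 371 in scMSC and 531, 280 and 256 in scivMSC. Its scivMSC values fell on both sides of the scMSC range (log2 fold change 0.02 ± 0.29, adjusted p = 0.963).

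Neutrophil transcripts did not move together. Of 12 markers, 9 overlapped between the groups, while 48.1% of all tested genes did not overlap. The calls were 2 lower and none higher, against 27.3% of all tested genes called lower, with a list median of -0.23. The median was 0.11 without scivMSC replicate 2, -0.85 with 4 called lower without scivMSC replicate 1, and 0.31 with 2 called higher and 1 lower under TMM scaling. The called genes both encode receptors. Csf3r, the receptor for the growth factor G-CSF, had FPKM of 35.2, 35.6 and 37.97 in scMSC and 15.9, 3.60 and 12.0 in scivMSC, and its log2 fold change of -1.78 ± 0.39 was called under both scalings (adjusted p = 0.00961). Cxcr2, the chemokine receptor that releases neutrophils from marrow, fell from 15.5, 14.1 and 13.9 to 7.83, 2.06 and 5.91 (log2 fold change -1.45 ± 0.37, adjusted p = 0.0129). Granule genes gave other values. Ngp, a granule protein of immature neutrophils, had FPKM of 30.7, 36.3 and 39.8 in scMSC and 77.7, 28.0 and 43.2 in scivMSC (log2 fold change 0.49 ± 0.33, adjusted p = 0.269). Camp, an antimicrobial peptide precursor, had a log2 fold change of 0.57 ± 0.35 (adjusted p = 0.227), and both passed as higher under TMM scaling. In 14 tested granule genes the median was -0.02, and Mmp25, a metalloproteinase above the filter in scMSC only, was called lower (-1.36 ± 0.40, adjusted p = 0.0226). Among 12 neutrophil markers the summed FPKM was 729, 588 and 709 in scMSC and 759, 254 and 459 in scivMSC, against 7117 to 11171 in DNCB and 223 to 448 in Solvent. The alarmin genes S100a8 and S100a9 overlapped between the MSC groups, with log2 fold changes of -0.34 ± 0.35 and -0.57 ± 0.33.

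Monocyte markers gave 1 call. Of 14 markers 6 were tested, and Csf1r, the receptor for macrophage colony-stimulating factor, was called lower. It had FPKM of 2.75, 1.94 and 2.01 in scMSC and 0.850, 0.249 and 0.550 in scivMSC, without overlap (log2 fold change -2.01 ± 0.45, adjusted p = 0.0102). Csf1r was thus above the filter in scMSC only, and of the 4 markers that reached 1 in both groups none was called. Lyz2, lysozyme, overlapped between the groups at 81.2, 72.8 and 78.8 against 101, 71.4 and 74.5. The 3 tested NK cell markers, Gzma, Nkg7 and Prf1, also overlapped, with a median of -0.42 and no call. Of 5 cytotoxic effector genes Ctsw, a cathepsin of cytotoxic lymphocytes, was called lower (-1.81 ± 0.38, adjusted p = 0.00885). It was above the filter in scMSC only, and none of the other 4 was called. Of the dendritic cell, progenitor and stromal lists only 1 gene each was tested, of the eosinophil and basophil list 2.

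**Figure D2:**
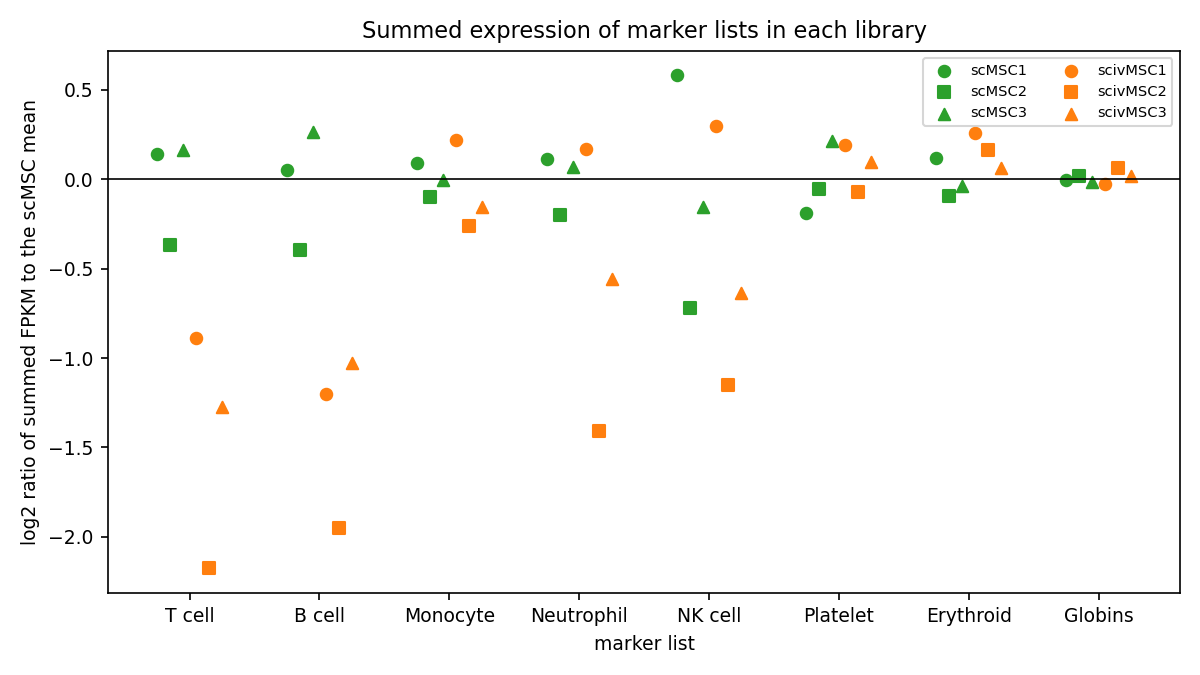
Summed FPKM of each marker list in each of the 6 libraries, as the log2 ratio to the scMSC mean (symbols mark replicates 1 to 3). T and B cell sums lay below all scMSC libraries in every scivMSC library, neutrophil and NK cell sums of scivMSC replicate 1 lay within or above the scMSC range, and globin sums varied least.

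Innate signalling lists differed in their share of calls. Of 4 tested genes of the interleukin-1 and interleukin-18 system 3 were called lower, and of the 2 tested genes that reached an FPKM of 1 in both groups 1 was called. In the phagocyte NADPH oxidase 2 of 9 genes were called lower, with Rac2 at -1.05, and among 4 NF-kappaB subunits and inhibitors Rela was, at -1.46 and above the filter in scMSC only, against 27.3% of all tested genes. None of 4 stefin genes was called. Il1b, the pro-inflammatory cytokine interleukin-1 beta, had FPKM of 16.8, 14.96 and 20.8 in scMSC and 7.96, 2.01 and 6.31 in scivMSC. The groups did not overlap, and its log2 fold change of -1.68 ± 0.39 was called under both scalings (adjusted p = 0.0107). In DNCB it averaged 84.4 and in Solvent 13.5. Il18r1, the receptor chain that binds interleukin-18, fell by 1.90 on the log2 scale and was above the filter in scMSC only. Il1r2, a decoy receptor, overlapped between the groups (log2 fold change -0.66 ± 0.46, adjusted p = 0.285). Of 16 inflammasome genes 3 were tested, and Gsdmd, which forms the pores of pyroptosis, was called lower (-1.67 ± 0.42, adjusted p = 0.0123). It was above the filter in scMSC only, and neither of the other 2 was called. The sensor Nlrp3 did not pass the filter, with FPKM of 1.01, 0.593 and 1.07 in scMSC and 0.405, 0.145 and 0.415 in scivMSC.

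Of 5 tested Toll-like receptor and adaptor genes 3 were called lower, and 1 when any single library other than scivMSC replicate 1 was left out. Of the 3 genes that reached an FPKM of 1 in both groups 2 were called. The adaptor Myd88 had FPKM of 4.63, 3.20 and 3.96 in scMSC and 1.59, 0.426 and 1.36 in scivMSC. It was called lower under both scalings (log2 fold change -1.79 ± 0.43, adjusted p = 0.0107), as was Tlr1, which senses bacterial lipopeptides and was above the filter in scMSC only (-1.54 ± 0.53, adjusted p = 0.0393). Tlr13, a sensor of bacterial RNA, was called with total counts only (-1.36 ± 0.48, adjusted p = 0.0421). Cd14, the lipopolysaccharide coreceptor, had a log2 fold change of -1.05 ± 0.71 (adjusted p = 0.273), with an FPKM of 0.00235 in scivMSC replicate 2 and 0.714 and 0.876 in the other two.

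Cytokine receptors and the JAK-STAT pathway, which carries their signals, had list medians of -1.38 and -1.36. Of 12 tested receptor chains 9 were called lower, as were 6 of the 9 chains that reached an FPKM of 1 in both groups. Il17ra, the interleukin-17 receptor, had FPKM of 3.31, 2.85 and 3.58 in scMSC and 1.52, 0.221 and 0.639 in scivMSC (log2 fold change -2.02 ± 0.49, adjusted p = 0.0116). Il4ra, the chain shared by interleukin-4 and interleukin-13, fell by 1.52 on the log2 scale (adjusted p = 0.015), and Il7r, the interleukin-7 receptor of T cells, by 1.76. Ifnar2, a type I interferon receptor chain, overlapped between the groups, at 3.59, 3.43 and 4.18 in scMSC and 2.94, 3.34 and 3.48 in scivMSC. All 9 tested JAK-STAT genes lay below scMSC without overlap and 6 were called. Of the 8 that reached an FPKM of 1 in both groups 5 were called. Stat6, the transcription factor of interleukin-4 signalling, had FPKM of 4.37, 4.58 and 4.90 in scMSC and 2.20, 0.832 and 1.43 in scivMSC (log2 fold change -1.62 ± 0.36, adjusted p = 0.0102). The kinase Jak3 was called as well (-1.52 ± 0.45, adjusted p = 0.0218). Jak1 and Jak2 did not reach the fold threshold, at -0.84 ± 0.29 and -0.61 ± 0.32. Without scivMSC replicate 2, 7 of the 12 receptor chains and 4 of the 9 JAK-STAT genes were called lower, without scMSC replicate 1 the counts were 5 and 2, and under TMM scaling 3 and 2.

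Receptors that guide and activate leukocytes were called lower under total counts, with fewer calls under the settings named here. Of 6 chemokine receptors 5 were called, among them Ccr7, which brings lymphocytes to lymph nodes (-1.30 ± 0.36, adjusted p = 0.019), and Cxcr4, which holds cells in marrow (-1.28 ± 0.46, adjusted p = 0.0477). Of 5 tested chemoattractant receptors 4 were called, with Ptafr, the receptor for platelet-activating factor, at -1.92 ± 0.47 (adjusted p = 0.0122) and above the filter in scMSC only. Without scMSC replicate 1, scMSC replicate 3 or scivMSC replicate 2, 1 chemokine receptor and 1 chemoattractant receptor were called lower. Under TMM scaling no chemokine receptor was called lower and 1 was called higher, and 1 chemoattractant receptor, Ptafr, was called lower. Among 13 tested genes for Fc receptors and Syk signalling 8 were called lower, but none under TMM scaling, 1 without scMSC replicate 1 or with the 6 libraries fitted alone, and 2 without scivMSC replicate 2. Tyrobp, an adaptor of myeloid receptors, had FPKM of 34.3, 25.6 and 26.4 in scMSC and 16.6, 5.96 and 13.4 in scivMSC (log2 fold change -1.25 ± 0.37, adjusted p = 0.0217). Syk itself and Fcer1g, the gamma chain of Fc receptors, were not called, at -0.85 ± 0.33 and -0.47 ± 0.35. Of 14 tested genes of the myeloid lectin, Trem and Lilr families 8 were called lower, 6 without scivMSC replicate 2, and 6 lower and 1 higher under TMM scaling. Of the 12 that reached an FPKM of 1 in both groups 6 were called lower. Cd300ld3, above the filter in scMSC only, was listed at 0 in scivMSC replicates 1 and 2. Of 10 tested integrin and selectin genes 5 were called lower, and 3 without scivMSC replicate 2. Of the 9 that reached an FPKM of 1 in both groups 4 were called lower. The integrin chain Itgam fell by 1.76 on the log2 scale, and its partner Itgb2 had a log2 fold change of -0.60 ± 0.29 (adjusted p = 0.121).

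Of 32 genes that the study discusses in blood, 21 were tested here. Of these 10 were called lower and none higher, and 17 lay below scMSC without overlap (median -1.08). Since the study chose them on these samples, this count is not independent evidence of their direction. Over single exclusions it ranged from 5 to 16, and it was 6 without scivMSC replicate 2. Of the 19 genes that reached an FPKM of 1 in both groups 9 were called lower. Hdc, which makes histamine, was called lower (-1.22 ± 0.35, adjusted p = 0.0202). Mmp9, Adam8, Trem1 and Ifitm1 were not, with log2 fold changes of -0.89, -1.08, -0.80 and -0.99. Lcn2, an iron-binding granule protein, had the highest value of the list, at 0.25 ± 0.30 (adjusted p = 0.56). The genes Il4, Il1r1 and Hrh2 did not pass the filter.

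No gene of the interferon lists was called higher with total counts. Of 24 tested interferon-stimulated genes 9 were called lower and none higher (median -0.91), while under TMM scaling 4 were called higher and 5 lower. Over all tested genes 27.3% were called lower with total counts, and 10.4% higher and 8.49% lower under TMM scaling. Of the 20 interferon-stimulated genes that reached an FPKM of 1 in both groups 5 were called lower, near the 18.7% of all such genes. In the Ifitm family Ifitm2 was the 1 call among 4 genes (-1.32 ± 0.43, adjusted p = 0.0318). Isg20, an exonuclease that degrades viral RNA, had FPKM of 137, 105 and 155 in scMSC and 162, 279 and 161 in scivMSC, all 3 above scMSC (log2 fold change 0.61 ± 0.24, adjusted p = 0.068). Rsad2, the antiviral enzyme viperin, also lay above without overlap, at 50.8, 29.8 and 38.9 against 59.4, 69.2 and 55.6 (0.63 ± 0.26, adjusted p = 0.0771). Both were called higher under TMM scaling only. The Schlafen family, regulators of leukocyte growth and quiescence, had 5 of 6 tested members called lower. Slfn1 had FPKM of 16.4, 9.61 and 13.6 in scMSC and 5.64, 2.23 and 4.32 in scivMSC (log2 fold change -1.69 ± 0.36, adjusted p = 0.00937). Slfn8 fell most (-2.15 ± 0.39, adjusted p = 0.00694) and was above the filter in scMSC only, as was 1 other member. Of the remaining 4 members 3 were called, and of all 6 tested 3 were called without scivMSC replicate 2. The exception was Slfn14, known for its role in red cells and platelets, at 0.54 ± 0.35 (adjusted p = 0.257). Under TMM scaling 3 members, Slfn8 and Slfn1 among them, were called lower and Slfn14 higher.

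**Figure D3:**
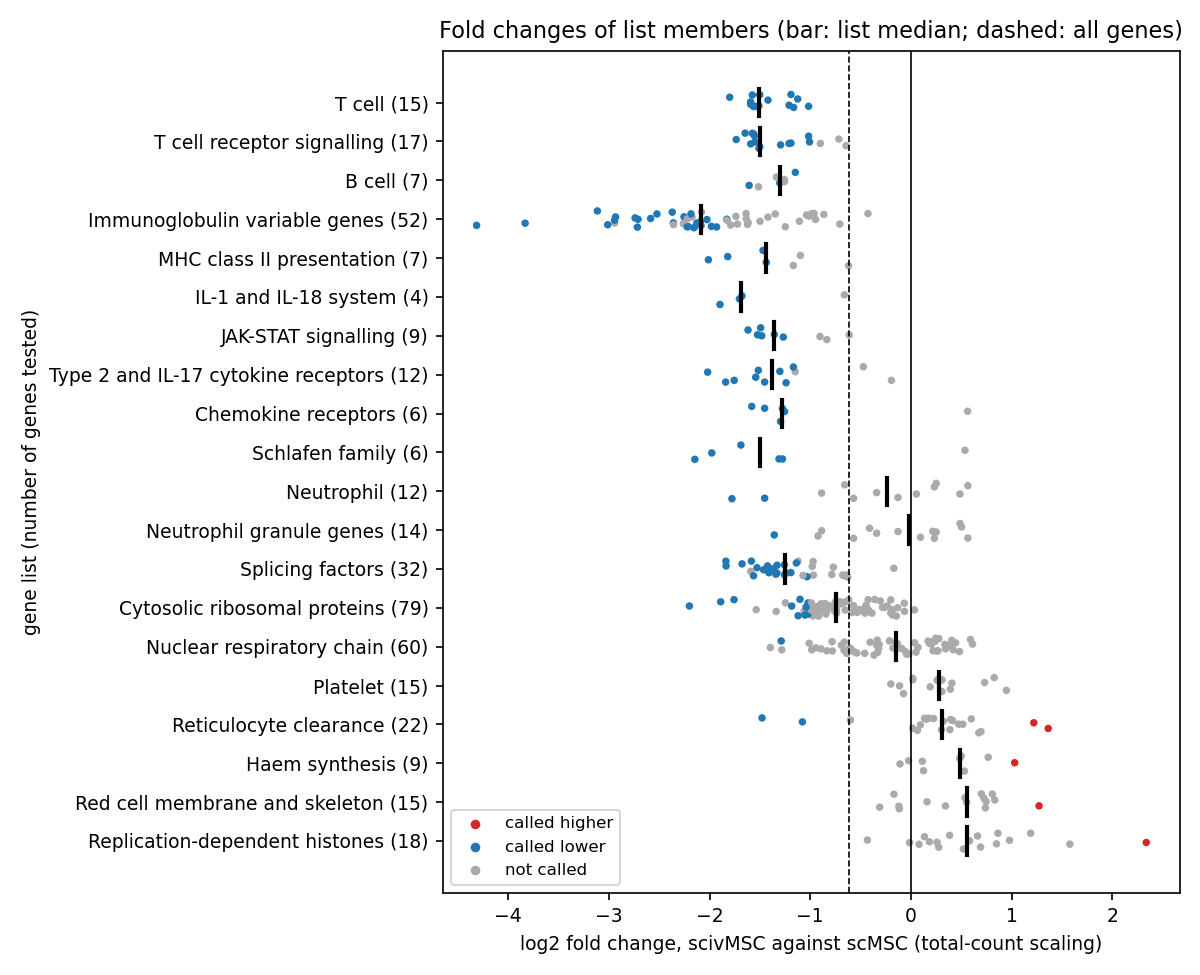
Log2 fold change of scivMSC against scMSC for each tested member of 20 gene lists (points), with the list median (bar), a solid line at 0 and a dashed line at the all-gene median of -0.62. Medians of the lymphocyte and cytokine signalling lists lie to the left of the dashed line, and those of the platelet and histone lists and of the red cell lists shown to the right of 0.

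In the globin, haem synthesis, membrane and enzyme lists of red cells the 3 calls were higher after the combined route, whereas the iron handling list had 1 call higher and 3 lower. The 6 tested globin genes had a median log2 fold change of 0.07 with no call. Alas2, the erythroid enzyme that starts haem synthesis, had FPKM of 4599, 4111 and 4167 in scMSC and 4950, 4578 and 4346 in scivMSC (log2 fold change 0.11 ± 0.11, adjusted p = 0.466). Slc25a37, mitoferrin, which brings iron into mitochondria for haem synthesis, had FPKM of 35.7, 21.2 and 29.2 in scMSC and 59.1, 74.0 and 66.4 in scivMSC. All scivMSC values lay above all scMSC values, and its log2 fold change of 1.22 ± 0.23 was called under both scalings (adjusted p = 0.00694). It belongs to the iron handling list, where 9 genes were tested with a median of -0.67. The falls there were Trf, transferrin (-1.57), Slc40a1, the iron exporter ferroportin (-1.56), and Hmox1, which degrades haem (-1.23), the last 2 named after their values were seen. Trf and Slc40a1 were above the filter in scMSC only, and none of these falls was called under TMM scaling. Of 9 tested haem synthesis genes 1 was called higher and none lower, with a list median of 0.48. This call was lost with the 6 libraries fitted alone and without each single library other than scivMSC replicate 3. Fech, the enzyme that inserts iron into haem, lay above scMSC without overlap but was not called (0.50 ± 0.20, adjusted p = 0.066).

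Membrane and enzyme genes of red cells gave the same picture. Epb41, which links spectrin to actin under the membrane, had FPKM of 20.5, 18.1 and 18.6 in scMSC and 25.1, 58.1 and 54.6 in scivMSC. It was called higher (log2 fold change 1.27 ± 0.28, adjusted p = 0.00961), and scivMSC replicate 1 lay close to the scMSC libraries. Epb41 averaged 42.8 in DNCB and 50.7 in Solvent, so the scMSC libraries were the low ones. The anion exchanger Slc4a1 had 54.0, 28.9 and 48.2 in scMSC and 72.9, 82.5 and 62.8 in scivMSC (0.74 ± 0.28, adjusted p = 0.0582). The 15 tested membrane genes had a median of 0.55, with Epb41 the only call. Among 13 tested enzymes and antioxidants Car2, a carbonic anhydrase, was called higher, from 31.7, 14.96 and 29.6 to 51.3, 63.8 and 39.2 (1.02 ± 0.36, adjusted p = 0.0444). The call of Car2 was kept without scivMSC replicate 1 and lost without each of the other 5 libraries. Under TMM scaling 4 haem synthesis, 10 membrane and 8 enzyme genes were called higher and none lower, against 10.4% of all tested genes. That share differed by expression level. TMM called higher 75 of 1566 genes with a mean FPKM under 2, 68 of 216 from 20 to 100, and 12 of 68 at 100 or above. The part of expression level in these calls was not tested. Gata1, the master transcription factor of red cells, overlapped between the groups (0.22 ± 0.31, adjusted p = 0.609), while its cofactor Ldb1, which leukocytes also express, fell by 1.91 on the log2 scale (adjusted p = 0.00885).

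The list of genes that clear organelles and proteins from reticulocytes, which also holds the survival factor Bcl2l1, had calls in both directions. Of 22 tested 2 were called higher and 2 lower (median 0.31), and 11 lay above scMSC without overlap, against 6.09% of all tested genes. Bcl2l1, the survival factor Bcl-xL of red cell precursors, had FPKM of 18.6, 5.41 and 14.4 in scMSC and 28.3, 40.8 and 29.4 in scivMSC (log2 fold change 1.36 ± 0.38, adjusted p = 0.019). Atg4a, an autophagy protease chosen after its values were seen, rose from 3.36, 0.801 and 2.35 to 5.01, 6.08 and 4.02 (1.22 ± 0.43, adjusted p = 0.0444). Bnip3l, the mitophagy receptor of reticulocytes, and Ube2o, the ubiquitin ligase that remodels their proteome, were chosen after their values were seen. Bnip3l had 259, 180 and 223 in scMSC and 320, 326 and 297 in scivMSC (0.52 ± 0.18, adjusted p = 0.0432), below the fold threshold. Ube2o had 64.6, 45.2 and 53.4 against 85.8, 86.9 and 86.6 (0.67 ± 0.21, adjusted p = 0.026). Of the called falls, Ulk1, an autophagy kinase also chosen after its values were seen, had a log2 fold change of -1.08 ± 0.30 (adjusted p = 0.0195) and was above the filter in scMSC only. Of the 21 genes that reached 1 in both groups 2 were called higher and 1 lower. Without scivMSC replicate 2 or 3 the list had 1 call higher and none lower, and without scMSC replicate 2 none higher and 2 lower, with Bcl2l1 at 0.999. In the Bcl2 family Mcl1, a survival factor of leukocytes, fell by 1.45 on the log2 scale, opposite to Bcl2l1.

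Platelet markers were not called in either direction, and all 15 were tested (median 0.28). Pf4, platelet factor 4, had FPKM of 338, 364 and 464 in scMSC and 345, 301 and 365 in scivMSC. Of the 15, 6 lay above scMSC without overlap, membrane receptor genes among them. Gp1bb, a chain of the von Willebrand factor receptor, had 10.2, 11.1 and 13.3 in scMSC and 24.7, 23.5 and 18.5 in scivMSC (log2 fold change 0.95 ± 0.28, adjusted p = 0.0211), just under the fold threshold. Gp9 of the same receptor, chosen after its values were seen, had 50.6, 50.8 and 57.0 against 91.1, 102 and 87.5 (0.83 ± 0.26, adjusted p = 0.0289). TMM scaling called 7 of the 15 higher.

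Replication-dependent histones, which package new DNA, had a median of 0.55 over 18 tested genes. H2bc8 was called higher, at 0.740, 0.665 and 0.766 in scMSC and 1.36, 5.31 and 4.496 in scivMSC (log2 fold change 2.34 ± 0.66, adjusted p = 0.0195). It passed the filter through scivMSC only, and none of the other 17 was called. Without scMSC replicate 1, scMSC replicate 3 or scivMSC replicate 3 no histone was called. H4c9 had 31.7, 27.2 and 37.4 against 57.1, 57.9 and 58.0, with a log2 fold change of 0.85 ± 0.28 (adjusted p = 0.0323). Histone genes resemble each other closely, so the division of reads between them is uncertain.

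Of 13 listed members of the apolipoprotein L family 2 were tested, and both were called higher under both scalings. Apol11b had FPKM of 12.6, 3.35 and 6.03 in scMSC and 26.6, 34.8 and 33.8 in scivMSC, with no overlap (log2 fold change 2.12 ± 0.50, adjusted p = 0.0107). It averaged 3.92 in DNCB and 2.85 in Solvent. The pseudogene Apol10c-ps had 0.731, 0.323 and 0.857 against 2.50, 3.70 and 2.73 (2.20 ± 0.73, adjusted p = 0.035). It passed the filter through scivMSC only, and its call was kept without scivMSC replicate 1 and lost without each of the other 5 libraries, while that of Apol11b was kept without each of the 6. The copies are similar in sequence, and reads may be shared between them.

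**Figure D4:**
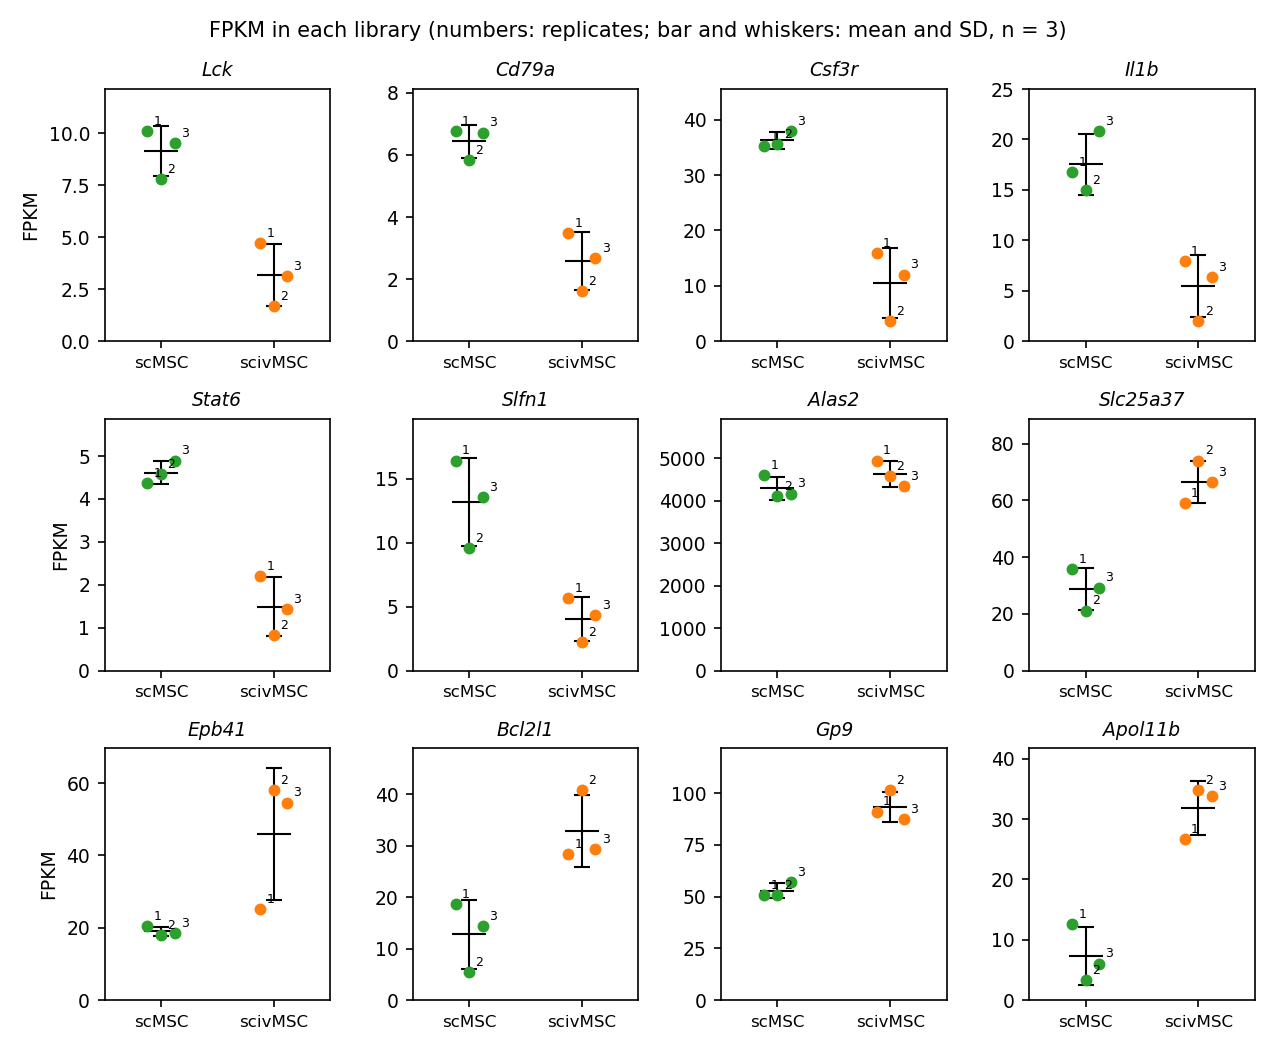
FPKM of 12 genes in each library (vertical axes start at 0; points are replicates 1 to 3; bar and whiskers are mean and SD, n = 3). Lck, Cd79a, Csf3r, Il1b, Stat6 and Slfn1 are lower in all 3 scivMSC libraries, Alas2 overlaps, and Slc25a37, Epb41, Bcl2l1, Gp9 and Apol11b are higher, with replicate 1 of scivMSC nearest to scMSC for Epb41.

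Lists of genes that serve all cells also differed in their share of calls. Splicing factors had 19 of 32 tested genes called lower (median -1.25), with Hnrnpa2b1 at 6.63, 5.34 and 6.67 in scMSC and 3.37, 1.67 and 2.70 in scivMSC (log2 fold change -1.25 ± 0.30, adjusted p = 0.0112). Of the 32, 7 passed the filter through scMSC alone, and 14 of the other 25 were called. Heat shock proteins and chaperonins had 15 of 30 called lower (median -1.04), with Hsph1 at -2.10 ± 0.46 (adjusted p = 0.00982). Of the 30, 4 were above the filter in scMSC only, Hsph1 among them, and 11 of the other 26 were called. Immediate early genes had 8 of 11 called lower (median -1.26), among them Btg1 and Klf2, which keep lymphocytes quiescent, at -1.43 ± 0.34 and -1.51 ± 0.38. Of the 10 immediate early genes that reached an FPKM of 1 in both groups 7 were called. Under TMM scaling 3, 2 and none of these 3 lists were called lower. Without scivMSC replicate 2 the counts were 10, 3 and 2, and over single exclusions they ranged from 9 to 27, from 2 to 21 and from 2 to 10, each highest without scivMSC replicate 1.

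Ribosomal protein genes lay close to the all-gene median, at -0.75, with 10 of 79 called lower, 26 without scMSC replicate 2, 36 without scivMSC replicate 1 and 2 or 3 without each of the other 4 libraries. Rps27a was called lower with the largest fall of the list, and had values of 16.2, 2.39 and 15.5 in scMSC and 3.68, 0.784 and 2.87 in scivMSC, and its groups overlapped. Nuclear respiratory chain genes were nearer 0, with a median of -0.14 over 60 genes. In this list Atp5g2, named after its value was seen, was called lower (-1.29 ± 0.41, adjusted p = 0.0289), and 16 genes were without scivMSC replicate 1. The 13 protein-coding transcripts of the mitochondrial genome had a median of -0.15 and no call, and mt-Co1, a cytochrome c oxidase subunit, had 1028, 745 and 897 in scMSC and 1291, 929 and 1006 in scivMSC. Of 32 tested translation factors 8 were called lower and none higher (median -0.77), and 16 lay below and 2 above scMSC without overlap. Over all tested genes 27.3% were called lower, 42% lay below and 6.09% above. Of the 31 translation factors that reached an FPKM of 1 in both groups 7 were called lower, near the 18.7% of all such genes. Calls among the 32 translation factors ranged from 0 without scMSC replicate 1 to 17 without scivMSC replicate 1, and under TMM scaling 4 were called higher and none lower. Eef1a1, an elongation factor, was not called (-0.90 ± 0.31, adjusted p = 0.0387, under the fold threshold), nor was Eif5, an initiation factor that lay above scMSC without overlap (0.58 ± 0.25, adjusted p = 0.0924). Among regulators of growth and hormone response, Ccnd2, a cyclin of the G1 phase, fell by 1.94, Nr3c1, the glucocorticoid receptor, by 2.10 and Tgfbr2, a TGF-beta receptor, by 1.94 on the log2 scale, and each was called under both scalings. All 3 were above the filter in scMSC only.

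Large changes were also measured in genes outside these families. Cpne1 had FPKM of 1.15, 1.16 and 1.34 in scMSC and 0.0122, 0.00713 and 0.00312 in scivMSC (log2 fold change -7.00 ± 0.52, adjusted p = 8.51e-07). Each scivMSC library held at most 12 counts of Cpne1, so the size of this fall is uncertain. With 12 counts in each of them the fall would be 26.1-fold. Cpne1 overlaps another gene, so the assignment of its reads is uncertain. Mrgpra2a, a receptor of the Mas-related family, had 1.14, 1.34 and 1.36 against 0.0789, 0 and 0.258 (-3.42 ± 0.68, adjusted p = 0.00885). Both were above the filter in scMSC only. Among the rises, Rundc3a had 1.84, 0.654 and 0.880 in scMSC and 2.95, 4.94 and 3.21 in scivMSC (1.71 ± 0.41, adjusted p = 0.0116), and Cdkn2b, an inhibitor of the cell cycle, had 0.237, 0.557 and 0.492 against 1.04, 1.48 and 1.302 (1.56 ± 0.52, adjusted p = 0.0355). Cdkn2b passed the filter through scivMSC only. Further called rises, named after their values were seen, were Cmas (1.13), Dcaf6 (1.01), Dbi (3.49) and Elovl5 (3.35) on the log2 scale. Dbi and Elovl5 rested on a single library, since scivMSC replicate 1 had 31.1 and 72.7 while replicates 2 and 3 had 0.793 and 1.05 for Dbi and 0.675 and 0.810 for Elovl5.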

How the data were processed

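The authors deposited 1 table of 25247 genes that holds estimated counts and FPKM values for the 12 blood libraries. Per the labels, total RNA was isolated with Trizol, and the submitters' processing notes name Bowtie 0.12.2, HISAT2 2.0, StringTie 1.3.0 and the build mm8, without roles. However, 94.7% of 21441 symbol-matched gene starts lay within 5000 bases of RefSeq GRCm38.p6, so no coordinates are given. Strandedness is not given in the sources used here. Of deposited counts from 1 to 12, 29.0% equal 4, so a fragment may be worth about 4 counts.

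Whole-number counts were fitted with edgeR 4.0.16 (R 4.3.3), quasi-likelihood test, 4 group means over 12 libraries, library sizes from total counts, Benjamini-Hochberg adjustment over 3252 genes. Standard errors were derived from the fold change and its F statistic. The test was checked on simulated data with equal numbers of rises and falls. They held no general shift between the groups, so the check does not cover one. Alternatives were TMM, DESeq2 1.42.0, limma 3.58.1 on log2(FPKM + 1) and log2(FPKM + 0.1), other filters, left-out libraries and a replicate block. Of 59 gene lists, the rule for named genes took the 3 highest by level and the extremes by fold change, the 6 largest changes in each direction, and genes the study names. Other genes were chosen after their values were seen, and some genes are not reported here. Members and lists were chosen with earlier results of these data known.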

Additional observations from a re-analysis of the deposited data

How the results depend on the processing

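Over alternatives, the calls of 904 genes (15 higher, 889 lower) were 423 with the 6 libraries alone (9 and 414), where adjusted p-values sat just under the threshold. They were 538 with TMM and the 6 libraries alone (234 and 304), 621 with DESeq2 size factors in edgeR (401 and 220), 639 with DESeq2 (405 and 234) and 848 with haemoglobin left out of library size (43 and 805). TMM itself gave 615 (339 and 276). The filter over 12 libraries gave 1701 (1682 lower), a mean FPKM of at least 5 gave 44 (3 and 41), and no filter gave 2297 (106 and 2191). With limma the calls depended on the value added to FPKM. There were 323 (313 lower) on log2(FPKM + 1) and 1016 (14 and 1002) on log2(FPKM + 0.1). Leaving out 1 library gave 348 to 1446 calls, 8 to 17 higher and 338 to 1429 lower, lowest without scMSC replicate 1 and highest without scivMSC replicate 1. Totals were 447 without scMSC replicate 3, 441 without scivMSC replicate 2 and 428 without scivMSC replicate 3. Leaving out scMSC replicate 2 reduced the rises from 15 to 8. Under TMM, the same exclusions, added after the data were seen, gave 305 to 930 calls, 170 to 487 higher and 135 to 443 lower, with the lowest values without scivMSC replicate 2 and the highest without scivMSC replicate 1. The cause of these differences was not tested, beyond the number of genes tested under each filter.

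The all-gene median of -0.62 was 0.0847 with DESeq2 size factors in edgeR, 0.0862 with DESeq2, 0.027 with TMM, -0.0624 with TMM and the 6 libraries alone, and -0.0849 at a mean FPKM of at least 5. With 1 library left out it was -0.945 to -0.435 under total counts and -0.0252 to 0.034 under TMM. TMM with the replicate block, added after the data were seen, gave 606 calls (320 and 286) and a median of 0.0177. Deviations of same-numbered scMSC and scivMSC libraries from their group means correlated at 0.07, 0.01 and 0.03 after TMM scaling. That scaling removes shifts of whole libraries, and the sources used here do not state how the numbers were assigned. Whether the numbers pair the samples therefore cannot be decided. The replicate block gave 1012 calls (16 and 996).

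The haemoglobin difference of 1.77 points was 0.696 as a share of FPKM and 0.933 to 2.96 with 1 library left out. Without scivMSC replicate 1, the log2 fold change of Dbi turned to -0.0507 and that of Elovl5 to -1.71, or -0.784 under TMM. Over all single exclusions and both scalings they ranged up to 4.25 and 4.14. Gzma ranged from -0.681 to 1.15, the latter a call under TMM without scMSC replicate 1. Of 75 named genes that were called, 15 kept their call under every alternative in which they were tested. A sign change between uncalled values was not counted as a reversal. Dividing counts by 4, added after the data were seen, gave 922 calls. With 3 libraries a group and about 4 counts per fragment, levels near an FPKM of 1 are the least precise.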

Other observations

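The small cytoplasmic 7SL RNAs, which form the signal recognition particle, differed between libraries of the same group. Rn7s1 had FPKM of 387, 95.7 and 6.86 in scMSC and 4.87, 2.91 and 5.45 in scivMSC, and Rn7s2 had 455, 91.1 and 4.30 in scMSC and 4.11, 2.69 and 0 in scivMSC. Both were called lower, at log2 fold changes of -5.19 ± 0.95 and -6.32 ± 1.39, while scMSC replicate 3 lay near the scivMSC libraries. They averaged 242 and 201 in DNCB. The copies are near-identical, so reads cannot be assigned to either with certainty.

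Bmp2, a bone morphogenetic protein, had FPKM of 0.851, 1.99 and 1.90 in scMSC and 1.80, 1.39 and 1.31 in scivMSC, against means of 0.107 in DNCB and 0.112 in Solvent. The MSC groups overlapped (log2 fold change -0.07 ± 0.57, adjusted p = 0.939). Gpx1, an antioxidant enzyme of red cells, lay above scMSC in all scivMSC libraries, at 1352, 903 and 1435 against 1810, 1832 and 1737, with means of 649 in DNCB and 697 in Solvent (log2 fold change 0.55 ± 0.38, adjusted p = 0.288).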
